A study of Mus musculus with 6 samples.

Results

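The balance of H3K4 against H3K27 reads was described gene by gene within mK3, an immortalized mouse cell line of the E11.5 metanephric kidney (strain CD1). For each gene, its share of all exon reads in the mK3 H3K4 library was divided by its share in the mK3 H3K27 library. A ratio above 1 therefore means relatively more H3K4 and a ratio below 1 relatively more H3K27. The copy number of the gene cancels because both libraries come from the same line, provided that all copies carry the same marks. Genes entered with at least 20 reads in the 2 libraries together, which 16540 of 21937 genes reached. The groups were mK3 H3K4, mK3 H3K27 and, as background, mK3 input, with the same 3 kinds of library from mK4, a further line of the same strain and stage, used only for comparison. Each group is 1 library, so no value has a replicate check, no test was possible and no p-value is given. A cell line models 1 population of the tissue in culture, and the labels give no treatment. Both lines are known, as background outside the labels, to come from mice carrying a T antigen transgene under the Hoxa11 promoter.

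Methylation of lysine 4 of histone H3 (H3K4) is placed by MLL and SET1 complexes and is typical of the promoters of active genes, whereas trimethylation of lysine 27 (H3K27) is placed by the Polycomb complex PRC2 at silent developmental genes. In embryonic cells some developmental promoters carry both marks, a state called bivalent. In the developing kidney, mesenchymal progenitors marked by factors such as Six2, Pax2 and Hox11 proteins either renew or form nephrons, and stromal cells lie beside them.

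The H3K4 and H3K27 libraries of mK3 held 595305 and 593079 reads over exons and the mK3 input held 311409, so reads per gene can be compared directly between the marks but not with the input. Totals in mK4 were 714011 for H3K4, 481235 for H3K27 and 386695 for input. The median gene row had 19 H3K4, 20 H3K27 and 10 input reads in mK3, which limits a single gene to coarse differences. Intervals below are exact 95% Clopper-Pearson intervals of the share of a gene's reads in the H3K4 library, turned into a ratio, and cover counting error only. The antibody labelled H3K4 has the catalogue number ab8898, which is known from the vendor as an antibody to trimethylated H3K9, and the H3K27 antibody has the number 39535. Neither label states the degree of methylation, and the libraries are called here by their labels. Whether the number or the name in the label is right was not tested. H3K9 trimethylation is known for covering clusters of KRAB zinc finger genes. The 349 members among KRAB-type and other Zfp genes had a median log2 ratio of 0.18, against 0.03 over all members. Of them, 45 (12.9%) had a ratio of at least 2 and 34 (9.74%) a ratio of at most 0.5, against 14.8% and 19.5% over all members. These values do not test the label, because the list is not limited to the KRAB clusters. Log2 ratios are given with 0.5 reads added to each count.

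Genes were called H3K4-rich at a ratio of at least 2 and H3K27-rich at a ratio of at most 0.5. Of the 16540 genes, 2446 (14.8%) were H3K4-rich, 3226 (19.5%) were H3K27-rich and 10868 (65.7%) lay between. A stricter call required the whole interval to lie past 2-fold, which held for 419 H3K4-rich genes (2.53%) and 491 H3K27-rich genes (2.97%). The whole interval lay above 1 for 3490 genes (21.1%) and below 1 for 3691 (22.3%). More genes thus lay past 2-fold on the H3K27 side, an order that changed when the minimum was set on the input instead, with 818 H3K4-rich and 516 H3K27-rich of 5583 genes with at least 20 input reads, a minimum chosen after seeing the data. No gene of the 16540 had 0 reads in either library. At the read minimum, the 168 genes with exactly 20 reads had a median log2 ratio of -0.01 and the 207 genes with 19 reads -0.15. At the ratio thresholds, A730008H23Rik had 185 H3K4 and 92 H3K27 reads (2.00) and Zfp277 22 and 11 (1.99), and Inhbe had 17 and 34 (0.498) and Gm8221 71 and 141 (0.502).

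Against the input, both ends differed from it in both marks. H3K4-rich genes had medians of 41 reads for H3K4, 15 for H3K27 and 15 for input, and their median log2 fold over input was 0.58 for H3K4 and -0.85 for H3K27. Medians at the H3K27-rich end were 12 H3K4 reads, 36 H3K27 reads and 10 input reads, with -0.49 for H3K4 and 0.99 for H3K27 over input. A gene at either end therefore had, in the median, a gain of its mark over input and a deficit of the other. The calls rest on the same reads, so these folds describe the ends and add no independent support.

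**Figure D1:**
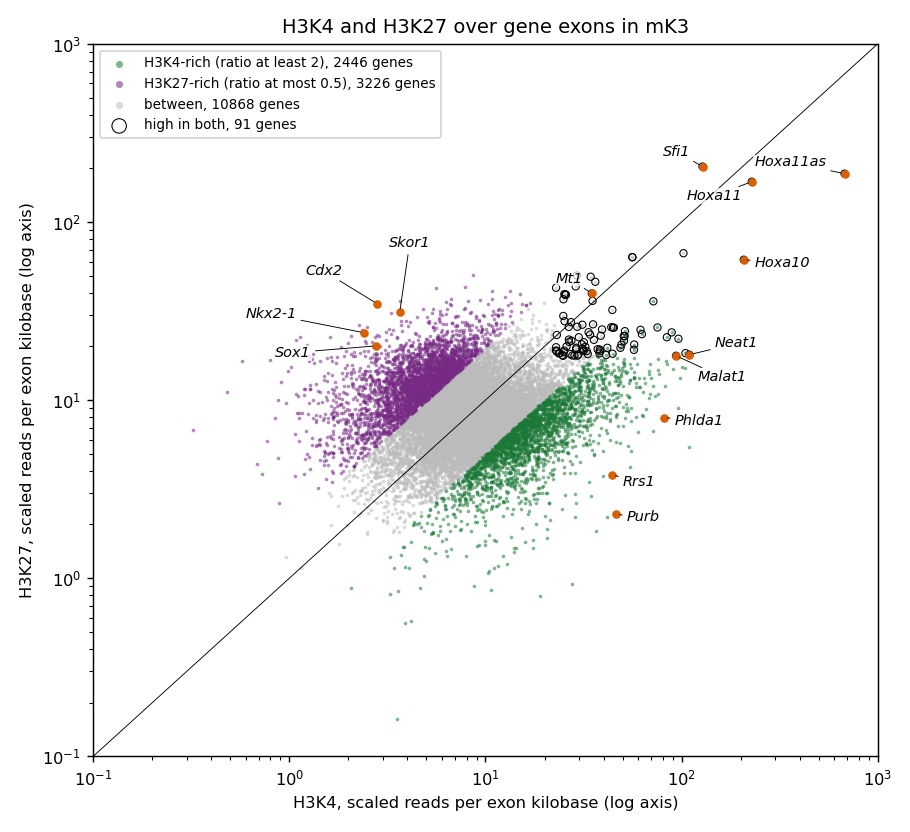
H3K4 (x) and H3K27 (y) reads per exon kilobase, scaled to equal library totals, for the 16540 genes of mK3 on log axes. Each point is a gene, green where H3K4-rich (2446), purple where H3K27-rich (3226) and grey between, with the 91 genes high in both ringed, named examples in orange and the line marking equal density. Purb, Rrs1 and Phlda1 sit low on the H3K4 side, Cdx2, Nkx2-1 and Skor1 on the H3K27 side, and the Hoxa genes stand far out in both.

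The named genes of the H3K4-rich end were of mixed function. Purb, a single-strand DNA-binding protein on chromosome 11, had 61 H3K4, 3 H3K27 and 11 input reads, a ratio of 20.3 (6.61 to 101). Rrs1, which acts in ribosome assembly, had 105 H3K4, 9 H3K27 and 10 input reads and a ratio of 11.6 (5.89 to 26.1). Pgp, the phosphoglycolate phosphatase on chromosome 17, had 86 H3K4, 8 H3K27 and 18 input reads, a ratio of 10.7 (5.20 to 25.6). In each of these genes the H3K27 reads were fewer than the input reads, although the H3K27 library is larger. Glrx5, needed for mitochondrial iron-sulfur clusters, had the highest ratio of the named genes, 29.9, with 30 H3K4 reads and 1 H3K27 read, and its interval from 4.97 to 1219 shows how little 1 read fixes.

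Immediate-early and signalling genes shared this end. Phlda1, an early response gene, had 184 H3K4, 18 H3K27 and 33 input reads and a ratio of 10.2 (6.27 to 17.6). Ier5l and Ier2, named for their immediate-early response, had ratios of 9.56 (4.98 to 20.6) and 7.03 (4.33 to 12). Smad6, an inhibitor of BMP signalling, had 159 H3K4 reads against 20 H3K27 reads, a ratio of 7.92 (4.96 to 13.3). These genes are switched on quickly by growth factors in many cell types. Foxc1, a forkhead factor of mesenchyme, was the leading developmental regulator with 220 H3K4, 33 H3K27 and 35 input reads and a ratio of 6.64 (4.59 to 9.89).

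Nuclear RNAs and RNA-binding proteins made up much of the rest. The long noncoding RNAs Malat1 and Neat1, neighbours on chromosome 19 that locate to nuclear speckles and paraspeckles, had 759 and 404 H3K4 reads, 143 and 66 H3K27 reads, and 148 and 71 input reads. Their ratios were 5.29 (4.42 to 6.37) and 6.10 (4.69 to 8.04), among the best counted at this end. The splicing factor Srsf2 had a ratio of 7.80 (4.76 to 13.5) and the poly(rC)-binding protein Pcbp1 one of 6.89 (4.43 to 11.2). The last of the 15 named genes were the magnesium transporter Nipa2, at 10.8 (4.34 to 34.5), and Tmem49, an autophagy protein, at 5.71 (4.32 to 7.66). All 15 were also past 2 in mK4, with ratios from 2.43 to 15.2.

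The named genes of the H3K27-rich end included transcription factors, enzymes and other proteins, and Cdx2 had the lowest upper bound. Cdx2, the caudal factor of intestine and trophectoderm on chromosome 5, had 7 H3K4, 86 H3K27 and 7 input reads, a ratio of 0.0811 (0.0317 to 0.174). Nkx2-1, a factor of thyroid and lung, had 8 H3K4, 79 H3K27 and 9 input reads and a ratio of 0.101 (0.0421 to 0.209). Foxa2, of endoderm and floor plate, had 4 H3K4, 43 H3K27 and 8 input reads and a ratio of 0.0927 (0.0242 to 0.255). In these 3 genes nearly all reads above the input came from the H3K27 library.

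Neural and other tissue-specific regulators followed. Sox1, of the early neural plate, had 13 H3K4, 94 H3K27 and 13 input reads and a ratio of 0.138 (0.0707 to 0.247). Skor1, a corepressor of the nervous system, had 16 H3K4 reads against 136 H3K27 reads and 20 input reads, a ratio of 0.117 (0.0651 to 0.197). Foxl2, of the ovary, had a ratio of 0.147 (0.0773 to 0.259), and Pitx1, of the hindlimb and pituitary, one of 0.118 (0.0455 to 0.259). These factors are known from other tissues, and their H3K4 share was under the input share in each of the 4. The homeobox gene Hmx1, of eye and ear, had 1 H3K4 read and 29 H3K27 reads, a ratio of 0.0344 with a wide interval (0.000841 to 0.207).

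Genes for enzymes and other proteins stood beside these factors. Pck1, the gluconeogenic enzyme of liver and mature proximal tubule, had 4 H3K4, 55 H3K27 and 10 input reads, a ratio of 0.0725 (0.0191 to 0.196). Gpat2, a mitochondrial acyltransferase, had 4 H3K4, 52 H3K27 and 4 input reads and a ratio of 0.0766 (0.0201 to 0.208). Cnpy1, whose zebrafish relative acts in FGF signalling of the midbrain and hindbrain, had 6 H3K4, 70 H3K27 and 19 input reads, a ratio of 0.0854 (0.0303 to 0.195). Its H3K4 reads lay well under the input. The tau kinase gene Ttbk1 had a ratio of 0.159 (0.0964 to 0.250), and Crtac1, Fam43b and Asb18 had 0.0679, 0.0922 and 0.0604. Of the 15 named genes, 14 were also at or below 0.5 in mK4, and Crtac1 was at 0.512 there.

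**Figure D2:**
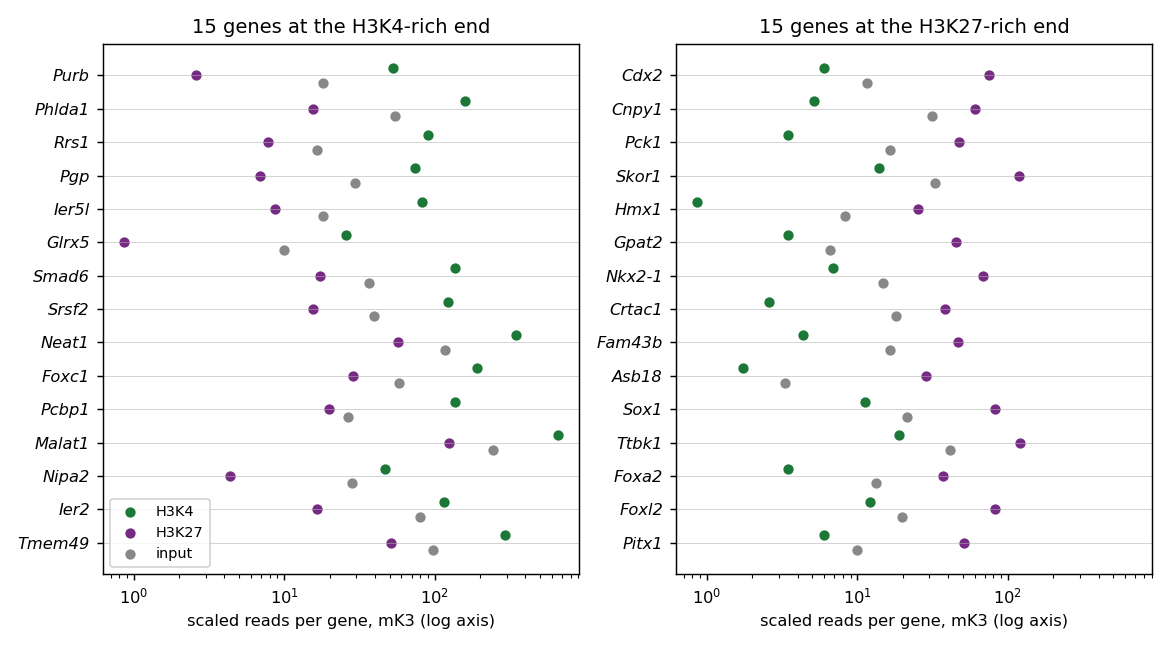
Scaled reads per gene in the mK3 H3K4 (green), H3K27 (purple) and input (grey) libraries on a log axis, for the 15 named genes at the H3K4-rich end (left) and at the H3K27-rich end (right), in order of their interval bound. At the left H3K4 lies right of input and H3K27 left of it for every gene. At the right H3K27 lies right of input and H3K4 left of it.

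Promoters of the first named genes of each class with a RefSeq entry are shown because CG-rich promoters are known as the usual sites of both marks. The counts here are taken as exon reads, which would not cover the bases upstream of a gene's start. Each sequence runs from 250 bases before to 50 bases after the start (RefSeq, GRCm38.p6), with each CG in capitals. Purb lies at chr11:6476027-6476326 on the minus strand and has 39 CG, and Pgp lies at chr17:24470176-24470475 on the plus strand and has 39 CG. Cdx2 lies at chr5:147307200-147307499 on the minus strand and has 18 CG, and Cnpy1 lies at chr5:28245739-28246038 on the minus strand and has 6 CG. Of the genes high in both by reads per exon kilobase (described below), Mt1 lies at chr8:94178839-94179138 on the plus strand and has 24 CG. Hoxa11 lies at chr6:52245761-52246060 on the minus strand and has 15 CG, and both of its marks were under its input share. At least 15 CG were found in 35.2% of 27025 promoter windows of this length, whose median was 7. A comparison of promoter CG between the ends was void, because only 77.6% of the 16540 genes matched a promoter, under the 80% set for it.
Purb: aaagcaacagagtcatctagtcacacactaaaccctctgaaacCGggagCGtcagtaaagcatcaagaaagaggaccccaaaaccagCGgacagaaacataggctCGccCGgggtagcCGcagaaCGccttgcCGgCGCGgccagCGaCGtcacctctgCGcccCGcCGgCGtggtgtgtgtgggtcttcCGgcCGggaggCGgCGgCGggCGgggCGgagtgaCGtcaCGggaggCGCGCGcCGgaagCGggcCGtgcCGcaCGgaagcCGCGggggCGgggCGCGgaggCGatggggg
Pgp: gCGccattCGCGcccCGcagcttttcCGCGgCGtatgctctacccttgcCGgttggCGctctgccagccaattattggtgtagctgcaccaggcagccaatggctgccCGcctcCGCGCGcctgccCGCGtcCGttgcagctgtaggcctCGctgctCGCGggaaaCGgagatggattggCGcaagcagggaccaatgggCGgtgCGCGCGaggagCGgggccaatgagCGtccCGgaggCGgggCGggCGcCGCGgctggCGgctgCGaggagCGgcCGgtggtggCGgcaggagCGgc
Cdx2: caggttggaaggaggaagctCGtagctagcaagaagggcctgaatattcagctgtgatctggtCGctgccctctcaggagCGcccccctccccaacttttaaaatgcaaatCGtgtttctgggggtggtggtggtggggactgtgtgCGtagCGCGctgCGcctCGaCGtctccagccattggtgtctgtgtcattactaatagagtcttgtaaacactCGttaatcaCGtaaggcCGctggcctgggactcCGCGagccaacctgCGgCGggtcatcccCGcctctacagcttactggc
Cnpy1: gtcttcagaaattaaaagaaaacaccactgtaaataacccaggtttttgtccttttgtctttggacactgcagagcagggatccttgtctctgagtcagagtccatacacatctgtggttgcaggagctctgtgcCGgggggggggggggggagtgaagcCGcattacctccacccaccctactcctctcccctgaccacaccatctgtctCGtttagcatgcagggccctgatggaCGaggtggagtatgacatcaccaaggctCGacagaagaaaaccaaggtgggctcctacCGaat
Mt1: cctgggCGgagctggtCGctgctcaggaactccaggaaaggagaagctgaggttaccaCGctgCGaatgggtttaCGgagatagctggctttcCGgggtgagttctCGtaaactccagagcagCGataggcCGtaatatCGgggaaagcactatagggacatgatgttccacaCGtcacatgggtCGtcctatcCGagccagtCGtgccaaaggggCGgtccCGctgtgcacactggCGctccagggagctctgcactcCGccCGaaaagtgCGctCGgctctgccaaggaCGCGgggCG
Hoxa11: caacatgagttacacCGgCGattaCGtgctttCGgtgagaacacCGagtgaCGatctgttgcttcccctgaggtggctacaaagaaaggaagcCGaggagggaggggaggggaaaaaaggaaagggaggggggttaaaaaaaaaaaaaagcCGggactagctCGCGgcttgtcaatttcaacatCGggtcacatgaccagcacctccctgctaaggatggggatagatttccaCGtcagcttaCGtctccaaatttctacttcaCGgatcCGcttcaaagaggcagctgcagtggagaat

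Gene families, grouped by the letters of the symbol before its first digit, were spread along the same axis. Among 287 families with at least 8 members, Nkx genes had the lowest median log2 ratio, -1.93, with 12 of 12 H3K27-rich and 0 H3K4-rich. The next were the potassium channel genes Kcna (-1.74), Pax (-1.65), Hoxd (-1.45), the chemokine receptors Ccr (-1.45), the calcium channels Cacna (-1.38), the potassium channels Kcnh (-1.38) and the interferon-induced Oas genes (-1.37). None of these 8 families had an H3K4-rich member. Highest were the snoRNA host genes Snhg (1.60), the mitochondrial ribosomal Mrps genes (1.35), the complex I subunits Ndufb (1.31), the splicing factors Srsf (1.27), the RNA-binding Lsm genes (1.15), Mrpl (1.10), the proteasome Psmd genes (1.09) and the membrane remodelling Chmp genes (1.07). A single H3K27-rich gene occurred in these 8, in Snhg.

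Lists of genes by function gave the counts behind this order, to be read against 14.8% H3K4-rich and 19.5% H3K27-rich over all genes. Cytosolic ribosomal protein genes had a median log2 ratio of 1.18, with 17 of 32 H3K4-rich and 0 H3K27-rich, and 55 more were under 20 reads. That median was 0.43 with a minimum of 20 input reads and 2.12 with a minimum of 50 reads. Mitochondrial ribosomal protein genes had 1.18 (0.89 with 20 input reads), with 32 of 54 H3K4-rich, 0 H3K27-rich and 22 more under 20 reads. Oxidative phosphorylation genes had 1.15 (0.71 with 20 input reads), with 24 of 45 H3K4-rich, 0 H3K27-rich and 45 more under 20 reads. A short gene could enter through the library in which it is high, so the counts of these 3 lists hold only for the genes that reached the minimum. The same limit applies to the other lists and to the families above. Examples were Rps27 of the small ribosomal subunit, with 49 H3K4, 7 H3K27 and 5 input reads (ratio 6.97, 3.14 to 18.2), and Atp5a1 of the ATP synthase, with 58 H3K4, 14 H3K27 and 22 input reads (ratio 4.13, 2.27 to 8.01). Proteasome subunits had a median of 0.94 with 13 of 31 H3K4-rich, and other housekeeping genes 0.91 with 9 of 19, among them Actb at 3.50 (2.30 to 5.49). A further 8 proteasome and 10 housekeeping genes were under 20 reads.

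Cell cycle inhibitors and the p53 axis had a median log2 ratio of 1.14, with 11 of 18 H3K4-rich and 0 H3K27-rich. Gadd45g, a growth arrest gene, had 74 H3K4, 10 H3K27 and 14 input reads and a ratio of 7.37 (3.79 to 16). Cdkn1b, which encodes the inhibitor p27, had 170 H3K4, 33 H3K27 and 23 input reads and a ratio of 5.13 (3.52 to 7.70). The Cdkn2a and Cdkn2b genes, often covered by H3K27 methylation in young fibroblasts, were on the H3K4 side too, at 1.79 (0.921 to 3.63) and 2.74 (1.38 to 5.83). Cdkn1c, an imprinted inhibitor, was at 0.598 (0.266 to 1.28).

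The genes that write, read and erase both marks stood on the H3K4 side themselves. Of 36, 13 were H3K4-rich and 1 was H3K27-rich, with a median log2 ratio of 0.76. Dpy30, a subunit of the H3K4 methyltransferases, had 34 H3K4, 7 H3K27 and 18 input reads and a ratio of 4.84 (2.11 to 12.9). The PRC2 genes Ezh2, Suz12 and Eed had ratios of 1.58 (0.904 to 2.84), 1.81 (1.21 to 2.75) and 1.91 (0.912 to 4.21). Phf19, a Polycomb-like partner of PRC2, was the H3K27-rich exception at 0.432 (0.207 to 0.853). The 18 genes of H3K9 methylation and KRAB repression had a median of 0.44 with 2 H3K4-rich. Replication-dependent histone genes had 0.78, with 4 of 13 H3K4-rich and 52 more under 20 reads, and their median log2 fold over input was below 0 in both marks (-0.46 for H3K4 and -1.42 for H3K27).

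Homeobox factors outside the Hox clusters formed the largest developmental list at the H3K27-rich end, with 45 of 74 H3K27-rich, 6 H3K4-rich and a median log2 ratio of -1.42. Nkx factors of the list had 11 of 11 H3K27-rich, Pax factors 6 of 8 (median -1.68), LIM homeobox factors 7 of 12 (-1.16) and neurogenic bHLH factors 12 of 19 (-1.41). Neurog1, which drives sensory neuron fate, had 4 H3K4, 35 H3K27 and 4 input reads and a ratio of 0.114 (0.0294 to 0.318). Lhx1, a LIM factor of early nephrons and neurons, had 33 H3K4, 110 H3K27 and 8 input reads and a ratio of 0.299 (0.196 to 0.445). Its H3K4 reads, too, were above its input share. The 6 exceptions on the H3K4 side included Hlx of visceral mesenchyme, at 5.98 (3.22 to 12.1), and Emx2 of urogenital and brain development, at 4.43 (2.71 to 7.60).

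Other transcription factor families were split between the ends. Of 17 Sox factors, 10 were H3K27-rich and 2 H3K4-rich. The 2 were Sox4, with 173 H3K4, 31 H3K27 and 30 input reads (ratio 5.56, 3.78 to 8.43) and Sox12 (3.07, 2.10 to 4.58). Sox18, of endothelium, had 7 H3K4 and 52 H3K27 reads (0.134, 0.0514 to 0.296). Forkhead factors had 8 of 41 H3K4-rich and 16 H3K27-rich, with Foxc2 at 5.24 (3.70 to 7.58) beside Foxc1, and Foxb1 of the brain at 0.199 (0.117 to 0.324). T-box factors had 1 of 15 H3K4-rich, Tbx18 of ureteral and stromal mesenchyme (2.50, 1.74 to 3.65), and 7 H3K27-rich, led by Eomes (0.242, 0.136 to 0.410). With 20 input reads as the minimum, the median log2 ratio of forkhead factors was 0.79, against -0.56 with the usual minimum, and that of T-box factors 0.10, against -0.81. The median of Sox factors was -0.24 under that minimum, against -1.15. Gata and Iroquois factors had 2 of 5 at each end. Gata6 and Gata3 had 3.53 (2.22 to 5.81) and 2.46 (1.32 to 4.82), while Gata4 and Gata5 had 0.423 (0.261 to 0.667) and 0.391 (0.221 to 0.667). In each of these 5 families, then, members lay past 2-fold on both sides.

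Id and Tcf/Lef factors leaned to H3K4, with 6 of 16 H3K4-rich and a median of 0.75. Id1, an inhibitor of bHLH factors and a BMP target, had 104 H3K4, 14 H3K27 and 14 input reads and a ratio of 7.40 (4.22 to 14). Id3 and Id2 had 6.50 and 6.35, so that these 3 Id genes lay close together. Sp and Klf factors had 7 of 25 at each end, with Klf2 at 4.48 (2.48 to 8.66) and Sp8, of limb and brain, at 0.226 (0.143 to 0.346).

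The 4 Hox clusters, which pattern the body axis, lay on different sides of the axis. HoxC had a median log2 ratio of 1.0, with 5 of 9 H3K4-rich and 0 H3K27-rich. HoxB had 0.50, with 3 of 10 H3K4-rich and 1 H3K27-rich, and HoxA 0.47, with 2 of 11 H3K4-rich and 0 H3K27-rich. HoxD had -1.45, with 0 of 9 H3K4-rich and 7 H3K27-rich, and all 9 HoxD ratios lay below those of all 9 HoxC genes (at most 0.613 against at least 0.941). Hoxc10 had 81 H3K4, 19 H3K27 and 17 input reads, a ratio of 4.25 (2.55 to 7.42), and Hoxc9 95 H3K4, 24 H3K27 and 31 input reads, a ratio of 3.94 (2.50 to 6.46). Hoxd13, of digits and hindgut, had 18 H3K4, 61 H3K27 and 12 input reads, a ratio of 0.294 (0.164 to 0.504). Hoxd8 had 4 H3K4, 24 H3K27 and 7 input reads, a ratio of 0.166 (0.0419 to 0.483).

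Within HoxA, the 2 H3K4-rich genes of the list were Hoxa9 and Hoxa10. Hoxa9 had 137 H3K4, 25 H3K27 and 45 input reads and a ratio of 5.46 (3.55 to 8.73), and Hoxa10 757 H3K4, 223 H3K27 and 322 input reads and a ratio of 3.38 (2.91 to 3.94). The other HoxA genes had ratios from 0.951 to 1.77. Hoxa11, a regulator of nephron progenitors, was near balance with 594 H3K4, 437 H3K27 and 347 input reads (1.35, 1.19 to 1.54). Both of its marks were under the input share, at 0.895-fold for H3K4 and 0.661-fold for H3K27 (0.5 reads added). The mK3 input density was 255 for Hoxa11 and 169 for Hoxa10, against a median of 8.36 over all genes. Whether all copies of these genes, transgene included, carry the same marks was not tested. Their ratios may therefore not describe the endogenous genes alone. Among the 3 Hox11 genes, Hoxc11 had 53 H3K4, 16 H3K27 and 5 input reads (3.30, 1.86 to 6.18) and Hoxd11 8 H3K4, 13 H3K27 and 5 input reads (0.613, 0.220 to 1.60). In HoxB, Hoxb4 and Hoxb2 had 3.16 (1.96 to 5.30) and 2.91 (1.82 to 4.78), and Hoxb13, of the posterior end, was the H3K27-rich member at 0.232 (0.0862 to 0.540). Its HoxC counterpart Hoxc13 was at 2.02 (1.34 to 3.08).

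**Figure D3:**
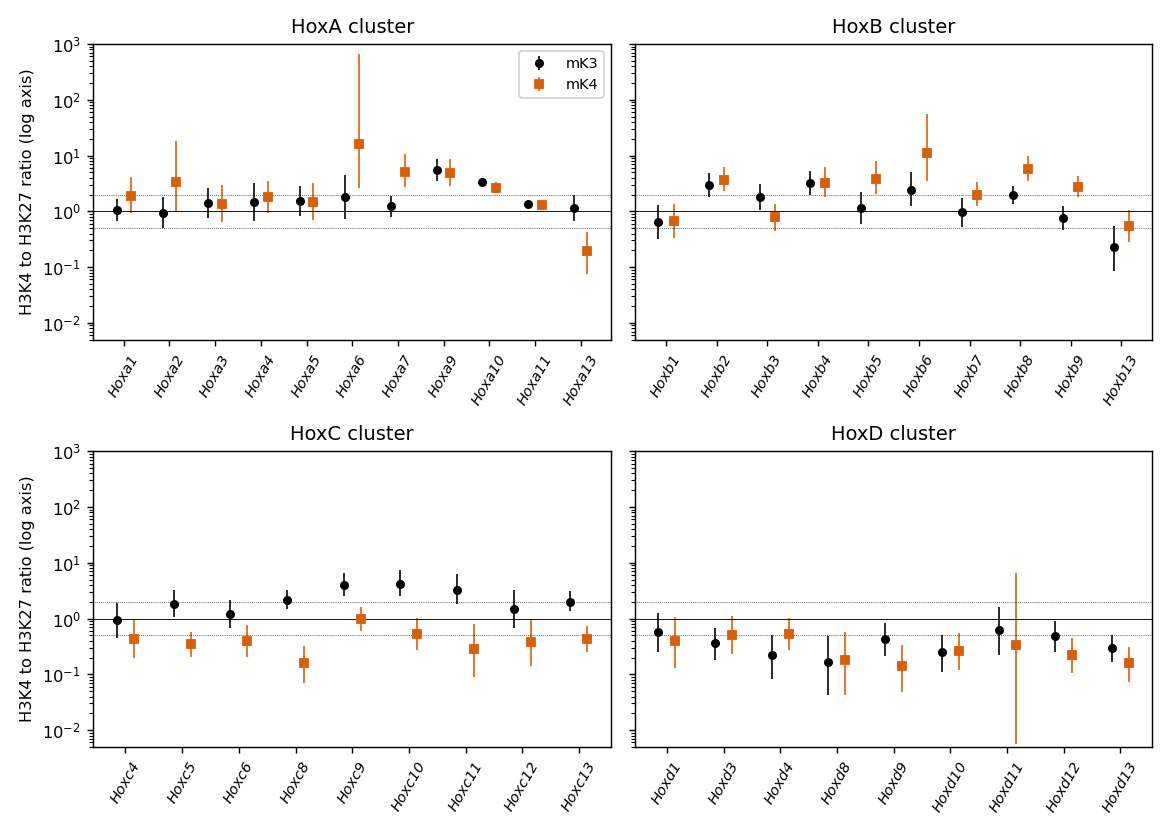
Ratio of H3K4 share to H3K27 share (log axis) for each gene of the HoxA, HoxB, HoxC and HoxD clusters in mK3 (black circles) and mK4 (orange squares), with exact 95% counting intervals and dotted lines at 2 and 0.5. HoxC ratios run from 0.941 to 4.25 in mK3 and from 0.157 to 0.989 in mK4. HoxD genes lie below 1 in both lines.

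Among kidney gene lists, mesenchymal and stromal genes stood on the H3K4 side. Mesenchymal genes had 8 of 20 H3K4-rich and 0 H3K27-rich (median log2 ratio 0.70), and renal stroma genes 7 of 18 H3K4-rich and 2 H3K27-rich (0.46). Twist1, a mesenchymal bHLH factor, had 100 H3K4, 20 H3K27 and 15 input reads and a ratio of 4.98 (3.06 to 8.50). Snai1, a repressor of E-cadherin, had 40 H3K4, 7 H3K27 and 8 input reads and a ratio of 5.69 (2.52 to 15.1), and Vim, the mesenchymal intermediate filament, a ratio of 3.94 (2.47 to 6.53). The stromal factors Foxd1 and Meis1 had 3.05 (2.02 to 4.74) and 2.89 (1.90 to 4.50). Tcf21, a further stromal factor, was H3K27-rich with 4 H3K4 and 20 H3K27 reads (0.199, 0.0495 to 0.595).

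Nephron progenitor genes did not lean to 1 side as a list, with 3 of 18 H3K4-rich, 5 H3K27-rich and a median log2 ratio of -0.50, which was 0.28 with a minimum of 20 input reads. On the H3K4 side was Osr1, an early marker of the nephrogenic field, with 36 H3K4, 12 H3K27 and 13 input reads (2.99, 1.52 to 6.31). Pax2, required for the metanephric mesenchyme, was H3K27-rich with 4 H3K4, 33 H3K27 and 10 input reads (0.121, 0.0311 to 0.340). Six2, which keeps progenitors undifferentiated, had 28 H3K4, 49 H3K27 and 6 input reads (0.569, 0.345 to 0.924), and Wt1 10 H3K4, 22 H3K27 and 9 input reads (0.453, 0.191 to 0.997). Gdnf, the signal to the ureteric bud, was near balance at 1.06 (0.697 to 1.61). Thus defining markers of the labelled tissue lay on both sides, and these are chromatin reads that do not measure expression.

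Genes of nephron formation and of mature segments lay mostly on the H3K27 side. Induced nephron genes had 8 of 19 H3K27-rich and 2 H3K4-rich (median -0.63). Pou3f3, of the distal nephron anlage, had 7 H3K4, 50 H3K27 and 4 input reads (0.139, 0.0534 to 0.309), and Fgf8 6 H3K4, 39 H3K27 and 8 input reads (0.153, 0.0530 to 0.365). Proximal tubule genes had 10 of 16 H3K27-rich and 0 H3K4-rich (-1.08), distal nephron genes 8 of 15 and 0 (-1.15), and ureteric bud genes 7 of 17 and 2 (-0.77). Slc22a8, an organic anion transporter, had 10 H3K4, 53 H3K27 and 9 input reads (0.188, 0.0853 to 0.373), and Bsnd, a chloride channel subunit, 13 H3K4, 52 H3K27 and 15 input reads (0.249, 0.124 to 0.464). Podocyte genes had 4 of 14 H3K27-rich and 1 H3K4-rich (-0.59), the exception being Foxc2, while Nphs1, which encodes nephrin, was at 0.270 (0.145 to 0.476).

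Markers of other cell types stood at the H3K27-rich end as well. Endothelial genes had 8 of 14 H3K27-rich and 0 H3K4-rich (median -1.08), blood and immune genes 8 of 11 and 0 (-1.23), muscle and heart genes 9 of 16 and 1 (-1.07), neural genes 7 of 15 and 0 (-0.97) and epithelial junction genes 12 of 25 and 0 (-0.90). A further 4 blood and immune genes were under 20 reads. Nefl, the light neurofilament, had 20 H3K4, 117 H3K27 and 20 input reads (0.170, 0.100 to 0.275). Tie1, an endothelial receptor, had 11 H3K4, 44 H3K27 and 14 input reads (0.249, 0.116 to 0.490). Ocln, the tight junction protein occludin, had 8 H3K4, 33 H3K27 and 11 input reads (0.242, 0.0964 to 0.533). For these 3 genes the H3K4 share was below the input share.

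The signalling lists named here had more H3K27-rich than H3K4-rich members. Wnt ligands had 11 of 18 H3K27-rich and 0 H3K4-rich (median log2 ratio -1.23, or -0.14 with a minimum of 20 input reads), led by Wnt6 with 14 H3K4, 66 H3K27 and 9 input reads (0.211, 0.110 to 0.380). Frizzled receptors and Wnt antagonists had a median of -0.10 and 6 of 28 H3K27-rich, near the share over all genes, and the 3 H3K4-rich genes of 28 were all receptors, Fzd2 (3.04, 2.23 to 4.21), Fzd7 (3.01, 2.19 to 4.18) and Fzd1 (2.16, 1.58 to 2.99). The H3K27-rich genes of this list included the antagonists Dkk1 (0.357, 0.200 to 0.613) and Wif1 (0.389, 0.235 to 0.627). FGF ligands and receptors had 9 of 27 H3K27-rich and 3 H3K4-rich. Those 3 were Fgf7 and the feedback inhibitors Spry2 (4.23, 2.69 to 6.91) and Spry1 (2.88, 1.69 to 5.15), while the ligand Fgf4 was at 0.136 (0.0473 to 0.320). BMP and GDF ligands and antagonists had 14 of 35 H3K27-rich and 0 H3K4-rich (median -0.72, or 0.12 with 20 input reads), with the antagonists Chrd and Nog at 0.252 (0.144 to 0.422) and 0.332 (0.208 to 0.515). In the Notch pathway 10 of 23 were H3K27-rich, such as the ligand Dll4 (0.231, 0.125 to 0.402), and 4 H3K4-rich, such as the target Hes1 (3.18, 1.92 to 5.46).

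Several lists of tissue-restricted genes outside development had 0 H3K4-rich members, although each had some members above balance. Keratins had 26 of 45 H3K27-rich and 0 H3K4-rich (median -1.27), potassium channels 55 of 89 and 0 (-1.21), cytochrome P450 genes 24 of 66 and 0 (-0.71, or -0.11 with a minimum of 20 input reads), histocompatibility genes 12 of 23 and 0 (-0.96), and C-type lectins and Klr receptors 16 of 44 and 0 (-0.67). Under 20 reads were 27 more cytochrome P450 genes, 22 more C-type lectin and Klr genes, 12 more histocompatibility genes, 4 more potassium channels and 2 more keratins. Krt14, of basal epidermis, had 4 H3K4, 27 H3K27 and 4 input reads (0.148, 0.0375 to 0.424). Kcna1, a neuronal potassium channel, had 64 H3K4, 215 H3K27 and 39 input reads (0.297, 0.221 to 0.394). Solute carriers, a mixed family of 323 members, had 85 H3K27-rich and 24 H3K4-rich, and Slc3a2, the amino acid transporter chain common to many cells, had 144 H3K4, 29 H3K27 and 39 input reads (4.95, 3.30 to 7.65). Collagens had 10 of 41 H3K27-rich, and the 1 H3K4-rich collagen was Col1a1 of mesenchyme (2.27, 1.71 to 3.04).

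Receptor families of the nose were mostly too thinly covered to enter. Of 1126 olfactory receptor genes, 140 reached 20 reads, of which 61 were H3K27-rich and 2 H3K4-rich (median -0.84). Vomeronasal receptors had 75 of 328 members, with 30 H3K27-rich and 1 H3K4-rich. Since a short gene could reach 20 reads through the library in which it is high, these counts say nothing of the receptors below the minimum. Clustered protocadherins had 25 of 56 H3K27-rich and 2 H3K4-rich. Their Pcdha genes share 3′ exons, so that reads of these genes may not be independent. How far shared reads enter the counts was not tested, and Pcdha2 had 22 H3K4 reads and 1 H3K27 read in mK3. Imprinted genes had 6 of 26 H3K27-rich and 1 H3K4-rich, Ube3a (2.53, 1.56 to 4.25), with Meg3 at 0.436 (0.317 to 0.595).

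**Figure D4:**
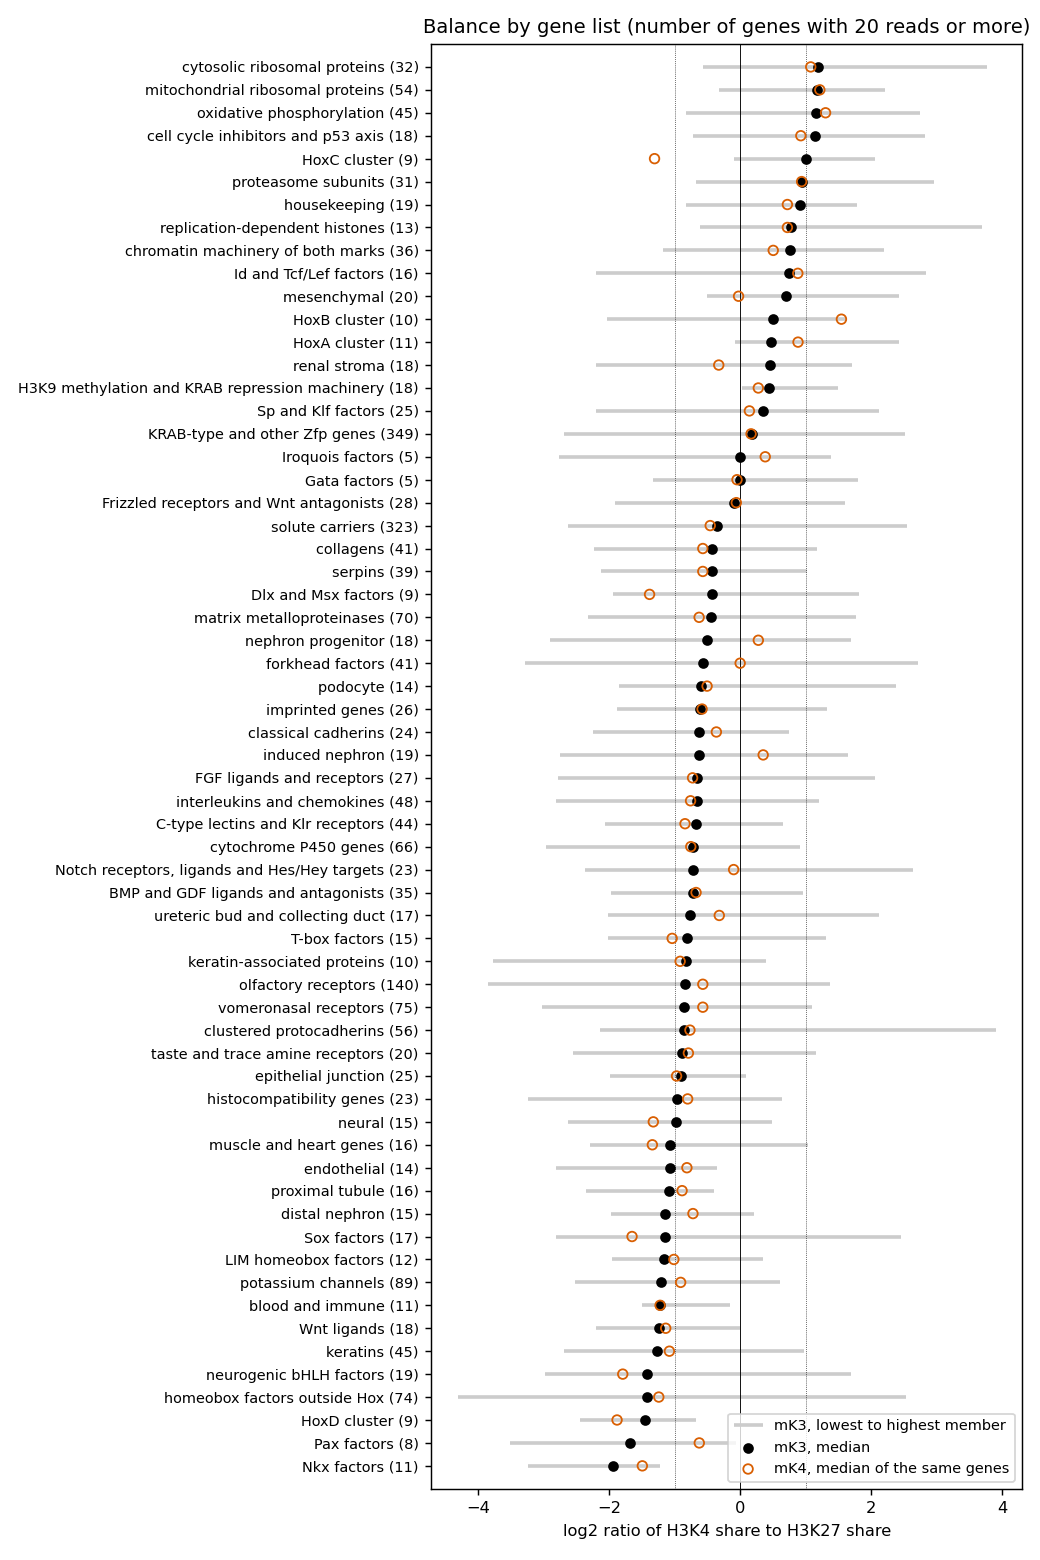
Median log2 ratio of H3K4 share to H3K27 share for each gene list with at least 5 members, in mK3 (black) and for the same genes in mK4 (open orange), with the range over members in mK3 (grey) and dotted lines at 2-fold. Ribosomal and respiratory lists lie at the top near 1.18, and Nkx and Pax factors at the bottom at -1.93 and -1.68. HoxC is the list whose medians lie farthest apart, at 1.0 in mK3 and -1.31 in mK4.

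Genes high in both marks were those in the top 5% of reads per exon kilobase in both libraries, at least 22.7 for H3K4 and 17.7 for H3K27 on the scale of equal totals. There were 91 (0.55%), which is 11% of each list of 827 genes. In such levels, unlike in the balance, copy number does not cancel, and 78 of the 91 also lay in the top 5% of input density. Their median input density was 30.9, against 8.36 over all genes. Hence most of the 91 were high in reads of every kind, input included.

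Hoxa genes were among the densest of these. Hoxa11as, the antisense RNA beside Hoxa11, had densities of 678 for H3K4, 187 for H3K27 and 270 for input. Hoxa11 had 228 for H3K4, 169 for H3K27 and 255 for input, and Hoxa10 208 for H3K4, 61.4 for H3K27 and 169 for input. These inputs lay far above the median of all genes, 8.36, and H3K4 exceeded input by the widest margin of the 3 in Hoxa11as, at 2.51-fold (0.5 reads added), where H3K27 was at 0.692-fold. Hoxa11 and Hoxa11as overlap, and as the files do not state a strand their reads cannot be told apart. Sfi1, a centrosome gene, had 128 for H3K4, 205 for H3K27 and 151 for input, and Pisd-ps1 and Pisd-ps3 both lay between 56.1 and 63.5 in the marks with inputs of 85.3 and 85.5. Sfi1 and the Pisd pseudogenes have near-identical copies, and their values are uncertain for that reason. Also among the 12 named genes, Ugt1a1 was at 1.43-fold input for H3K4 and 2.04-fold for H3K27 (0.5 reads added). In the same order, Rgs9 was at 1.13 and 1.93, and Chchd7, on 7 input reads, at 1.78 and 1.30. Dad1 was at 1.11 and 0.724, and Mid1 at 0.860 and 1.09.

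Some genes were high in both marks without a high input. Mt1, the zinc-binding metallothionein, had 22 H3K4, 25 H3K27 and 3 input reads, densities of 34.8, 39.7 and 9.08, and a ratio of 0.877 (0.471 to 1.62). Of the 91, 67 were not clone-named or small RNA genes, and 5 of those had a density of at least 2-fold the input density in both marks, namely Mt1, Ccdc56, Anapc13, Prdx2 and Use1. These 5 rest on 2 to 5 input reads each, and with 5 scaled reads added the 2-fold rule left 2 of the 91, Mt1 and Use1. Use1, a vesicle fusion protein, had 31 H3K4, 22 H3K27 and 3 input reads, and Prdx2, a peroxide reductase, 26, 20 and 5. All 5 are short genes, with 411 to 1076 exon bases. Of the 91, 25 were H3K4-rich and 0 H3K27-rich.

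With at least 2-fold the input in both marks (scaled reads plus 5) as the rule in place of the density, 257 genes (1.55%) qualified, 199 of them with at most 3 input reads. Of 497 genes on 28 lists, developmental ones with the distal nephron list among them, 13 (2.62%) met it. Among olfactory receptors 19 of 140 met it, and among vomeronasal receptors 7 of 75. Across those 497 genes 70 were H3K4-rich and 202 H3K27-rich. Of the 13, 7 lay between the ends in balance. Irx3, an Iroquois factor of the nephron and neural tube, had 37 H3K4, 37 H3K27 and 3 input reads, 5.60-fold and 5.63-fold input, and a ratio of 0.996 (0.614 to 1.62). Vax2, of the ventral eye, had 18 H3K4, 15 H3K27 and 1 input read (1.20, 0.569 to 2.55). Dmbx1, of the brain, had 35 H3K4, 38 H3K27 and 6 input reads (0.918, 0.563 to 1.49). The remaining genes with both marks over input leaned to H3K27, among them Wnt7b, with 38 H3K4, 99 H3K27 and 8 input reads, and Sox2, with 10, 41 and 1. Reads of both marks on 1 gene can come from different cells or alleles, and these counts cannot tell them apart.

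Some neighbouring genes shared an end. In the order of RefSeq genes (GRCm38.p6), 76 runs of at least 4 consecutive members were H3K27-rich throughout, holding 360 of the 3226 genes, and 15 runs were H3K4-rich throughout, holding 63 of 2446. How many runs chance alone would give was not computed, and several runs hold tandem copies or genes with common exons. The longest H3K27-rich run had 12 genes, from Pcdha3 to Pcdhac2, which share exons, while Pcdha2 of the same cluster had 1 H3K27 read. Others were the Cd3 genes of T cells and their neighbours from Cd3g to Scn4b (9 genes, 152 H3K4 and 498 H3K27 reads), the keratins from Krt73 to Krt78 (8 genes, 111 and 365 reads), the skeletal myosins from Myh3 to Myh13 (6 genes, 127 and 392 reads) and Gsx1, Pdx1, Cdx2, Prhoxnb and Flt3 (5 genes, 51 and 304 reads). The last run had a median log2 ratio of -2.39, and holds the pancreatic factor Pdx1 beside Cdx2. The longest H3K4-rich run had 6 genes, from Rai12 to Acadvl, and Hoxc11, Hoxc10, Hoxc9 and Hoxc8 formed another (312 and 97 reads). Over whole chromosomes the ratio of summed shares kept between 0.955 (chromosome 7) and 1.14 (chromosome 19).

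Gene length moved with the calls. Of 5 equal groups by exon length, the shortest (111 to 1703 bases) had 25.6% of genes H3K4-rich and 23.7% H3K27-rich, and the longest (4604 to 104634 bases) 6.14% and 14.4%. Of the strict calls, H3K4-rich genes made up 5.20% of the shortest and 0.786% of the longest group, and H3K27-rich genes 2.78% and 2.99%. The median log2 ratio was 0.06 in the shortest group and 0.05 in the longest. The part of exon length in the lists above was not tested.

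The same balance in mK4, whose libraries did not choose the genes, was available for 15496 genes with at least 20 mK4 reads. Across these genes, which share exon length and sequence between the lines and are not independent, the log2 ratios had a Pearson r of 0.70 and a Spearman rho of 0.71, given as a description. In mK4, 17.6% of them were H3K4-rich and 17.7% H3K27-rich. Of the H3K4-rich genes of mK3, 1338 of 2348 (57.0%) were H3K4-rich in mK4 and 23 were H3K27-rich. Of the H3K27-rich genes, 1486 of 2908 (51.1%) were H3K27-rich in mK4 and 34 H3K4-rich. The strict calls of mK3 had 339 of 414 (81.9%) and 308 of 464 (66.4%) on the same side past 2-fold in mK4. mK4 is another line and no replicate.

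**Figure D5:**
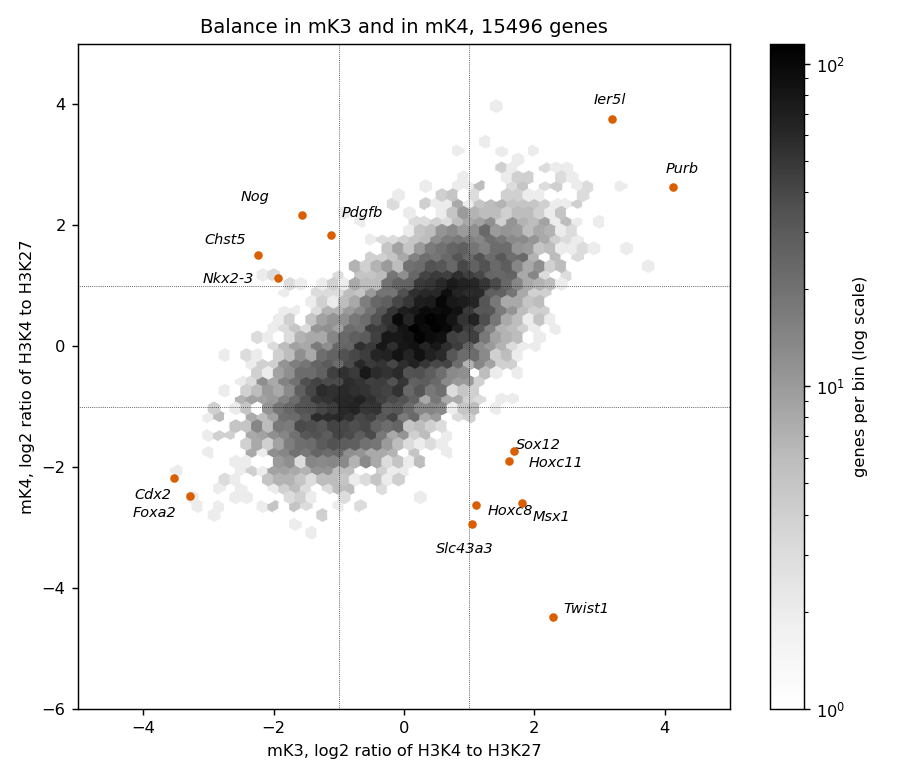
Log2 ratio of H3K4 share to H3K27 share in mK3 (x) and mK4 (y) for 15496 genes, as a density of genes per hexagonal bin (log shading), with dotted lines at 2-fold and named genes in orange. Most genes lie along the diagonal (Pearson r 0.70). Twist1, Msx1, Hoxc8 and Sox12 lie at lower right, Nog, Pdgfb, Chst5 and Nkx2-3 at upper left.

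Several mesenchymal and Hox genes lay at the H3K4-rich end in mK3 and not in mK4. The mesenchymal list had a median log2 ratio of 0.70 in mK3 and -0.02 in mK4, and the renal stroma list 0.46 in mK3 and -0.33 in mK4. Induced nephron genes had -0.63 in mK3 and 0.35 in mK4, and nephron progenitor genes -0.50 in mK3 and 0.28 in mK4. In mK3 the nephron progenitor median was 0.28 with a minimum of 20 input reads and -0.10 with 50 reads. The mesenchymal and renal stroma medians of mK3 stayed above 0 with 20 input reads, at 0.66 and 1.01. List medians of mK4 are over all list members of mK3, whether or not they had 20 mK4 reads. Pax2 had a ratio of 0.121 (0.0311 to 0.340) in mK3 and 1.95 in mK4, and Lhx1 0.299 in mK3 and 0.867 in mK4. These lists hold genes known from the uninduced mesenchyme and from forming nephrons. The differences between the lines have no replicate check and were not tested.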

How the data were processed

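ChIP-seq libraries of mK3, with mK4 for comparison, were used as deposited. Each deposited file lists, per the file headers, a chromosome, gene symbol, exon length, read count and RPKM value for 22088 rows. The counts are whole reads that the authors counted per gene, set against exon length. The authors' RPKM divides that count by exon length and by the library total. Recomputing it from each file's own total deviated by at most 4.2e-07 RPKM, so the total used is the sum of the listed counts. Per the submitters' processing notes, reads were placed on mm9. Not given in the sources used here are the aligner, the strand, the read length and how duplicates were handled. Because the counts are set against exon length, they are taken here as exon reads. Reads outside exons, such as most promoter reads, are therefore taken not to enter, which the totals do not show.

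Of 137 symbols with several rows, the row with most reads was kept, which left 21937 genes. Balance is the ratio of read shares (H3K4 over H3K27), called at 2 and 0.5, with Clopper-Pearson intervals. Levels are reads per exon kilobase scaled to a total of 513622, the mean of the 6 libraries. Folds over input add 0.5 reads, and the rule of at least 2-fold the input in both marks adds 5 scaled reads. Intervals and calls were tested on data simulated with counting error alone, which does not cover variation between libraries. The 63 gene lists, the members and the rules were chosen with earlier results of these data known.

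Named genes are the 15 with the highest lower bound at the H3K4-rich end, the 15 with the lowest upper bound at the H3K27-rich end, the 12 with the highest smaller density for genes high in both, and up to 3 at each end of each list by the same bounds, leaving out clone-named, small RNA, chemosensory receptor and Y-linked genes. Other genes named in the text, chiefly further members of the Hox, cell cycle, chromatin, stromal and nephron lists and genes with both marks over input, were chosen after their values were seen. Symbols were matched to RefSeq genes of GRCm38.p6 for neighbour order only, 14711 by symbol and 1695 by synonym, with 134 unmatched. Python 3.11.15, numpy 2.4.6, pandas 2.3.3, scipy 1.17.1 and matplotlib 3.10.9 were used. Alternatives were the read minimum, the scaling, the pseudocount, the row kept per symbol and the rule for genes high in both.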

Additional observations from a re-analysis of the deposited data

Results flagged for a closer look

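The following genes lay past 2-fold toward H3K4 in one line and past 2-fold toward H3K27 in the other, and were picked out for that reason. The difference between the lines was not tested, as each group has 1 library, and the counts behind several values are small. With the whole counting interval on its own side of 1 in both lines, 20 genes were H3K4-rich in mK3 and H3K27-rich in mK4, and 21 were H3K27-rich in mK3 and H3K4-rich in mK4. Those named here also had an interval wholly past 2-fold in at least 1 line.

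The HoxC cluster had a median log2 ratio of 1.0 in mK3 and -1.31 in mK4, with Hoxc8 at 2.18 in mK3 and 0.157 in mK4. Twist1 had the widest gap, with a ratio of 4.98 in mK3 (100 H3K4 and 20 H3K27 reads) and 0.0306 in mK4 (1 H3K4 and 22 H3K27 reads). Msx1, a homeobox factor of mesenchyme, had 3.65 in mK3 and 0.153 in mK4. Sox12 had 3.07 in mK3 and 0.263 in mK4, the matrix enzyme gene Lox 3.30 in mK3 and 0.496 in mK4, and Slc43a3, a nucleobase transporter, 2.09 in mK3 and 0.120 in mK4. Pcdha2 had 21.9 in mK3 and 0.303 in mK4, but the mK3 value rests on 1 H3K27 read and the gene shares exons with its neighbours.

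In the other direction, Nog, a BMP antagonist, had 0.332 in mK3 (28 H3K4 and 84 H3K27 reads) and 4.56 in mK4 (149 H3K4 and 22 H3K27 reads). Pdgfb, a growth factor gene, had 0.457 in mK3 and 3.65 in mK4. Chst5, a sulfotransferase gene, had 0.206 in mK3 and 3.03 in mK4, Nkx2-3 0.257 in mK3 and 2.25 in mK4, the calcium channel gene Cacna1g 0.298 in mK3 and 2.14 in mK4, and the mitochondrial carrier gene Slc25a21 0.249 in mK3 and 2.25 in mK4.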

How the results depend on the processing

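The 30 named genes at the ends were followed under the other scalings, the 5 scaled reads added and the first row per symbol, and kept their directions. Changes of that size could not reverse ratios this large, so this adds no support. They were not followed under the other read minimums. Counts depended on the read minimum, the pseudocount and the rule for genes high in both. With 50 reads in place of 20, members numbered 9500, H3K4-rich genes 1420 and H3K27-rich genes 1588, genes rich in the same mark in both lines 803 for H3K4 and 868 for H3K27, and genes high in both 56. With 5 scaled reads added, H3K4-rich genes numbered 1699 and H3K27-rich genes 2161, and the genes rich in both lines numbered 843 for H3K4 and 851 for H3K27. With 20 input reads as the minimum, chosen after seeing the data so that neither mark selects genes, H3K4-rich genes numbered 818, H3K27-rich genes 516, and those in both lines 429 and 273, so that the side with more calls changed. Of 46 list medians under that minimum, 6 changed sign from below to above 0: forkhead (0.79), T-box (0.10), nephron progenitor (0.28), BMP and GDF (0.12), interleukin and chemokine (0.35) and Frizzled and Wnt antagonist genes (0.03). With 50 reads 2 of 59 did, the forkhead (0.04) and the Dlx and Msx factors (0.11). The cause of these sign changes was not tested. Both minimums leave fewer genes, 5583 with 20 input reads and 9500 with 50 reads. Genes high in both numbered 235 at the top 10%, 281 by reads per gene, 257 at 2-fold the input in both marks, and 13 without genes in the top 5% of input density, an alternative chosen after seeing the data. Centring on the median shifted log2 ratios by 0.03, and totals without the top 1% of rows by less. No paired analysis was possible because each group has 1 library.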
